A study of Mus musculus with 6 samples.

Results

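The imprinted Gnas cluster was examined as the CpGs of mouse chromosome 2 between 174.12 and 174.19 Mb (build mm39), an interval of 70 kb. With the strands of each CpG merged, 241 CpGs of the interval had at least 10 reads in at least 2 samples of each genotype, out of 864621 such CpGs on the autosomes. Of these 241 CpGs, 150 were covered in all 6 samples and 91 were missing from at least 1, and a further 239 CpGs of the interval were listed in some library but did not meet the rule. The series measured DNA methylation by RRBS, which cuts genomic DNA with MspI at CCGG and so samples CpG-rich fragments, in neocortex of mice at postnatal day 5. A wild-type group (WT, n = 3) was set beside a group labelled Chd8+/- (n = 3), heterozygous for Chd8, a chromatin remodeller gene. The stated purpose was to look for changes of the DNA methylome in mouse models of a CHD8-related disorder. Strain, sex and the construction of the allele are not given in the labels, nor whether the samples came from separate animals, so a p-value measures only the spread between these samples. The DNA came from whole tissue, so a methylation level is a mixture over cell types and over both parental chromosomes.

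Gnas encodes the alpha subunit of the stimulatory G protein, which couples hormone and transmitter receptors to adenylyl cyclase. Its locus is an imprinted cluster with several promoters that share downstream exons. Nesp, which encodes the secretory protein NESP55, is expressed from the maternal chromosome and methylated on the paternal one. Gnasxl, which encodes a longer G protein subunit, the antisense non-coding RNA Nespas, and exon 1A, which lies just upstream of Gnas, are expressed from the paternal chromosome and methylated on the maternal one. The promoter of Gnas exon 1 itself is unmethylated on both, although Gnas is expressed mainly from the maternal copy in a few tissues. Methylation of 1 parental chromosome in all cells gives a level near 50% in an assay that, as here, does not tell the alleles apart.

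The promoter letters show the CpGs and the CCGG sites of the promoters. RefSeq (GRCm38.p6) lists 4 promoters of 300 bases under Gnas, all on the plus strand, from 250 bases before to 50 bases after the start, and these are named here by their order along the cluster. Those of Nesp, exon 1A and Gnas exon 1 are printed 5′ to 3′, and the fourth is a second exon 1A start whose window overlaps the first. Capitals mark the CpGs that were listed in at least 1 library for Nesp and Gnas exon 1, and every CpG for exon 1A.
Nesp: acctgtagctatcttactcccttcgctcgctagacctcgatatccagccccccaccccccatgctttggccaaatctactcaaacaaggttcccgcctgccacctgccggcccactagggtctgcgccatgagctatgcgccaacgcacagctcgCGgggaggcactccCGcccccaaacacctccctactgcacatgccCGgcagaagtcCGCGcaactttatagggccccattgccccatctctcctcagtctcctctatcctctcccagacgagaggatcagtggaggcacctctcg
Exon 1A: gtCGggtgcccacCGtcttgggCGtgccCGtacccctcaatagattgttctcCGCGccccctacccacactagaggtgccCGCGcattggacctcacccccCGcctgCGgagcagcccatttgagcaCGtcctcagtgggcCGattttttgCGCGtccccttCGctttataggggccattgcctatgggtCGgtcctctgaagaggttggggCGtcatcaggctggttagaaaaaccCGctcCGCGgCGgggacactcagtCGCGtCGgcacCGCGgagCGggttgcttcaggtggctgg
Gnas exon 1: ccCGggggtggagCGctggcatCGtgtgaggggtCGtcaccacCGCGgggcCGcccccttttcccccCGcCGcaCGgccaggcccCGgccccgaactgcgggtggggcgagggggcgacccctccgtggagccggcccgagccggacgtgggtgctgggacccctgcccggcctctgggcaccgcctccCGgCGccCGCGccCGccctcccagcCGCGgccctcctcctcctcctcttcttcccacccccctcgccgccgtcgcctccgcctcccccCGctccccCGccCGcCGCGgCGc

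The Nesp promoter held 16 CpGs and 2 CCGG sites, exon 1A held 27 CpGs and no CCGG site, and Gnas exon 1 held 40 CpGs and 6 CCGG sites. CCGG reads the same on both strands. Among 32851 RefSeq promoters of the same length, 52.8% held CCGG and the median was 7 CpGs. At least as many CpGs as in Gnas exon 1 were found in 3.91% of promoters, against 15.5% for exon 1A and 33.0% for Nesp. The spacing of the CpGs was compared only at positions where every listed CpG of the stretch fell on a CpG of the sequence. Among these positions, Gnas exon 1 was placed at chr2:174171549-174171848 of mm39, with 24 listed CpGs matched against 3 at the next best. Nesp was placed at chr2:174125863-174126162, with 5 listed CpGs matched against 2 at the next best. Positions with any mismatched CpG were not ranked, so a full match holds for every position compared. These put the Nesp start at 174126113 and the Gnas exon 1 start at 174171799, which is 45686 bp apart, the same distance as in RefSeq GRCm38.p6. No CpG run matched exon 1A, and the table holds no promoter for Gnasxl or Nespas, so these were located only by their known order. In RefSeq GRCm38.p6 the exon 1A start lies 2257 bp before the Gnas exon 1 start.

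The libraries listed between 953724 and 1400708 CpG cytosines, with coverage sums over the listed cytosines of 45498222 to 54818138 reads in WT and 32285980 to 39820333 in Chd8+/-. Within the interval the sums were 11422 to 13401 reads in WT and 8140 to 9426 in Chd8+/-, so the Chd8+/- values rest on fewer reads. Of the 241 CpGs, 210 to 235 were covered in each WT sample and 210 to 225 in each Chd8+/- sample. Replicate 3 of each group stood apart in its share of reads on chromosome X, 2.58% in WT and 2.56% in Chd8+/- against 1.18 to 1.21% in the other 4 libraries. The part of this difference in the autosomal values below was not tested, but the differences of the 8 stretches, of the interval, its flanks and the autosomes, and of the named windows and CpGs were also computed without these 2 libraries, an alternative added after seeing the data. CpGs on 1 MspI fragment share reads, so in sums over CpGs a read counts once for each CpG it covers. All intervals and limits given here treat these counts as independent. They cover counting error only, and can be too narrow where reads are shared.

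**Figure D1:**
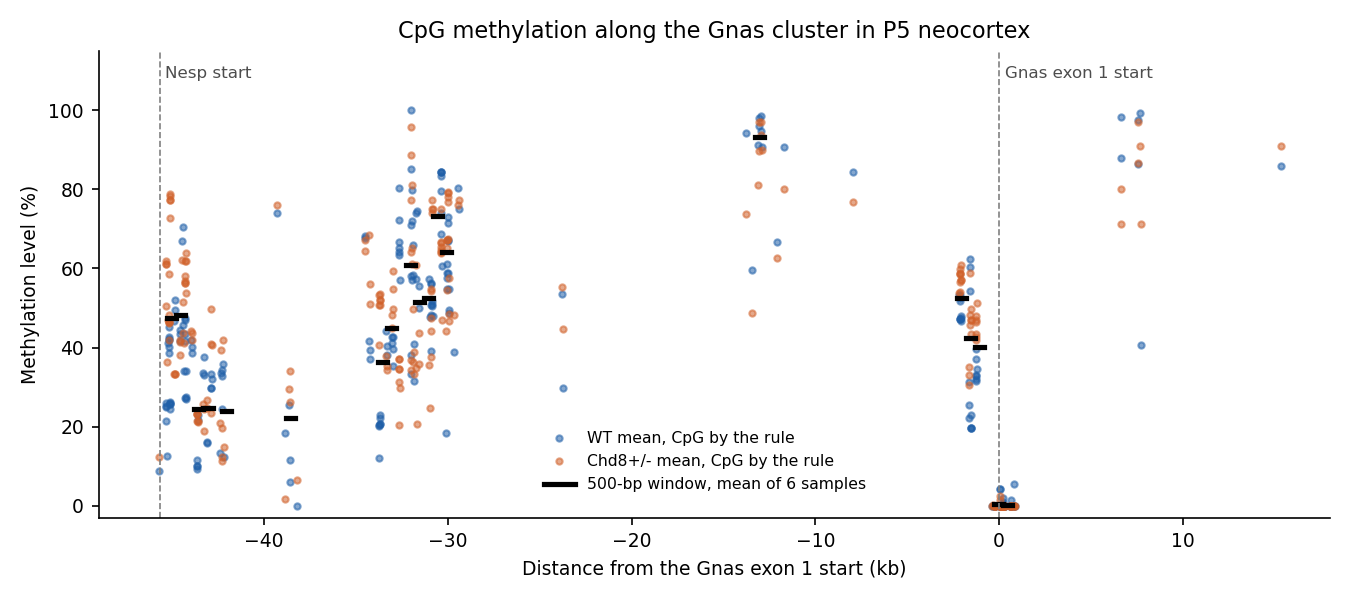
Methylation level (percent, vertical axis) of the 241 CpGs against the distance from the Gnas exon 1 start in kb (horizontal axis), with points for the mean of each group at a CpG and black bars for the mean of the 6 samples in the 19 windows of 500 bp. Window means near 50% are seen after the Nesp start, near the middle of the cluster and just before Gnas exon 1, and those of the 2 windows at the Gnas exon 1 start are under 1%.

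Along the 70 kb the level alternated between intermediate, low, methylated and unmethylated stretches. The 241 CpGs fell into 40 windows of 500 bp, of which 19 held at least 3 CpGs covered in all 6 samples. Of these 19 windows, 11 (57.9%) had a mean level over the 6 samples of 35 to 65%, against 9.28% of 69625 autosomal windows and 3 of 49 windows (6.12%) within 500 kb on either side. A further 4 windows lay at 20 to 35%, 2 under 20%, 1 at 65 to 80% and 1 over 80%. On the autosomes the classes under 20% and over 80% held 40.1 and 37.1% of windows. With windows of 1000 bp, 7 of 14 (50%) lay at 35 to 65%, against 10.6% on the autosomes. Taken by single CpG, 125 of the 241 (51.9%) lay at 35 to 65%, 58 under 20% and 18 over 80%.

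The promoter of Nesp was thinly covered. Its listed CpGs gave 22 methylated of 84 reads (26.2%, exact Clopper-Pearson 95% interval 17.2 to 36.9%) in WT replicate 2. WT replicate 3 had 0 of 39, which allows up to 7.69%, while WT replicate 1 had none listed. Each limit given here for a count of 0 is 3 divided by the reads. It is lower than the exact upper bound, which is 9.03% for 0 of 39. In Chd8+/- the values were 9 of 33 reads (27.3%, 13.3 to 45.5%) in replicate 1, 0 of 20 in replicate 2, which allows up to 15.0%, and 2 of 20 (10%, 1.23 to 31.7%) in replicate 3. The samples of both groups overlapped, and with so few reads no level could be set for the promoter itself.

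The CpGs just downstream of the Nesp start formed the first intermediate stretch. It ran from 174126501 to 174127500, or 388 to 1387 bp after the start, with 21 CpGs in 2 windows. The WT samples stood at 40.3, 32.0 and 49.8% and the Chd8+/- samples at 65.01, 39.5 and 60.3%, from 567 to 1279 reads per sample. The groups overlapped, because Chd8+/- replicate 2 lay below WT replicates 1 and 3. The means were 40.7% ± 8.89 for WT and 54.9% ± 13.6 for Chd8+/- (SD, n = 3 each), a difference of 14.2 points (SE 9.38). An exact permutation test gave p = 0.3 (0.533 after Benjamini-Hochberg adjustment over 8 stretches). Leaving out each library in turn gave 9.19 (without Chd8+/- replicate 1) to 21.9 points (without Chd8+/- replicate 2). Weighted by reads, the difference was 7.26 points. With at least 20 reads in all 6 samples it was 2.87 points, but only 1 of the 12 CpGs in the window at 174126501 and 5 of the 9 in the window at 174127001 then remained, and with all their CpGs these windows differed by 24.9 and −0.0698 points.

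From 174128001 to 174133500 the level was lower, at 20 to 35% in each of 4 windows with 15 CpGs in all. WT samples had 24.8, 23.8 and 24.2%, and Chd8+/- samples had 21.9, 19.004 and 29.8%. Inside the stretch, windows with too few CpGs for this count included 1 CpG at 75.2% (mean of 5 samples) in the window at 174132001 and 1 CpG at 11.8% in that at 174132501. The WT values of the stretch lay within 1 point of each other and inside the range of the Chd8+/- values. This did not hold by window. In the 4 windows in order, WT samples spanned 23.9 to 29.9%, 19.2 to 32.3%, 23.5 to 35.2% and 9.53 to 20.9%. Chd8+/- samples spanned 14.5 to 39.5%, 20.5 to 28.4%, 17.9 to 22.0% and 19.2 to 41.8%. Means of 24.3% ± 0.480 and 23.6% ± 5.57 (SD, n = 3 each) gave a difference of −0.675 points (SE 3.23, exact permutation p = 0.9, adjusted 1). The sign of this difference turned under several other settings, with 3.45 points when weighted by reads.

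The middle of the cluster, where Nespas and Gnasxl lie by order, held the longest intermediate stretch. It covered 174138001 to 174141000, starting 11888 bp after the Nesp start, with 32 CpGs in 5 windows. Levels of 55.2, 43.4 and 59.2% in WT and 45.8, 53.1 and 57.0% in Chd8+/- were interleaved. The means, 52.6% ± 8.23 and 52.0% ± 5.66 (SD, n = 3 each), differed by −0.643 points (SE 5.77, exact permutation p = 1, adjusted 1), and the sign turned without WT replicate 3 (2.65 points). The next window, 174141001-174141500 with 7 CpGs, was more methylated, at 69.3, 94.3 and 75.7% in WT and 46.4, 69.1 and 84.3% in Chd8+/-, and it had the fewest reads of the 8 stretches, 100 to 214 per sample. The window after it, to 174142000, returned to 52.0, 60.3 and 72.6% in WT and 65.1, 73.6 and 61.1% in Chd8+/-. The groups overlapped in both windows, with differences of −13.2 points (SE 13.3) and 4.96 points (SE 7.04) and an exact permutation p of 0.4 for each. The former was −3.08 points without Chd8+/- replicate 1, and the latter 0.145 without WT replicate 1.

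Between the middle of the cluster and exon 1A, RRBS reached few CpGs. The 3 members of the window at 174142001, next to the middle stretch, gave 61.3%, and of the 6 further windows with a member, 3 had a mean over 80%. The 6 CpGs of 174158501-174159000, 13298 to 12799 bp before the Gnas exon 1 start, stood at 94.3, 94.4 and 95.9% in WT and 91.9, 94.5 and 87.9% in Chd8+/-. The groups overlapped through Chd8+/- replicate 2, and the means of 94.9% ± 0.904 and 91.4% ± 3.32 (SD, n = 3 each) differed by −3.42 points (SE 1.99, exact permutation p = 0.3), and by −1.65 without Chd8+/- replicate 3. The lowest of these 6 windows was 174148001-174148500, where 2 CpGs gave a mean of 45.8% over the 6 samples.

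The last intermediate stretch lay just before Gnas, where exon 1A lies by order. It ran from 174169501 to 174171000, or 2298 to 799 bp before the Gnas exon 1 start, with 17 CpGs in 3 windows. WT samples had 46.2, 35.1 and 39.9%, and Chd8+/- samples had 44.9, 42.7 and 54.3%. WT replicate 1 lay above 2 of the 3 Chd8+/- samples, so the groups overlapped. The means were 40.4% ± 5.56 and 47.3% ± 6.13 (SD, n = 3 each), a difference of 6.89 points (SE 4.78, exact permutation p = 0.3, adjusted 0.533). The difference was 3.41 points without Chd8+/- replicate 3, 4.26 without WT replicate 2 and 3.14 without replicate 3 of both groups. Over the CpGs with at least 20 reads in all 6 samples it was 9.91 points, with an exact permutation p of 0.1, the smallest possible. That set held 0 of 4 CpGs in the window at 174169501, 3 of 6 at 174170001 and 7 of 7 at 174170501. With all their CpGs these windows differed by 10.6, −0.800 and 11.4 points.

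Between this stretch and the Gnas promoter the level fell to 0 within 862 bp. Among the CpGs covered in all 6 samples, the last before the Gnas start with a mean of at least 20%, at 174170574, read 36.6, 20.5 and 46.7% in WT and 64.6, 42.0 and 47.2% in Chd8+/-. At 174171436, 862 bp further on and 363 bp before the start, the level was 0 in all 6 samples with 43 to 109 reads each. Only CpGs outside the rule lay in between. Those at 174170726 to 174170798 were listed in WT replicate 3 alone, at 0 to 16.7%. At 174171102 to 174171132, CpGs listed in 3 libraries stood at 33.3 to 41.7% in WT replicate 1, 0 to 30% in WT replicate 3 and 0 to 18.2% in Chd8+/- replicate 3. In WT replicate 3 the values were thus not ordered by distance, and the other 3 libraries had no CpG listed in between.

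The Gnas exon 1 promoter was unmethylated in every sample. Over the 24 CpGs marked in its sequence, 12 to 20 were listed per sample, and 4 of 1854 reads in all were methylated. WT samples had 0 of 505, 1 of 479 (0.209%) and 2 of 231 (0.866%) reads. Chd8+/- samples had 0 of 292, 1 of 160 (0.625%) and 0 of 187. The counts of 0 allow a level of up to 0.594% in WT replicate 1, 1.03% in Chd8+/- replicate 1 and 1.60% in Chd8+/- replicate 3. Over the whole unmethylated stretch, 174171501 to 174172500 with 25 CpGs, 15 of 4008 reads were methylated. The mean levels were 0.543% ± 0.364 in WT and 0.162% ± 0.154 in Chd8+/- (SD, n = 3 each, exact permutation p = 0.2), a difference of −0.381 points that was −0.191 without WT replicate 2. From 174178001 on, 3 of the 4 windows that held a member were methylated by their means over the 6 samples. These were 84.4% at 174178001-174178500 (2 CpGs), 93.2% at 174179001-174179500 (3 CpGs) and 88.5% at 174187001-174187500 (1 CpG). The remaining one, at 174179501, gave 55.9% from 1 CpG. At 174178001 the groups did not overlap, with 91.9, 93.4 and 94.0% in WT and 68.1, 73.8 and 85.0% in Chd8+/-. That window held too few CpGs for the tests of 500 bp windows. The groups overlapped in the other windows, and those at 174179501 and 174187001 had the higher mean in Chd8+/-.

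**Figure D2:**
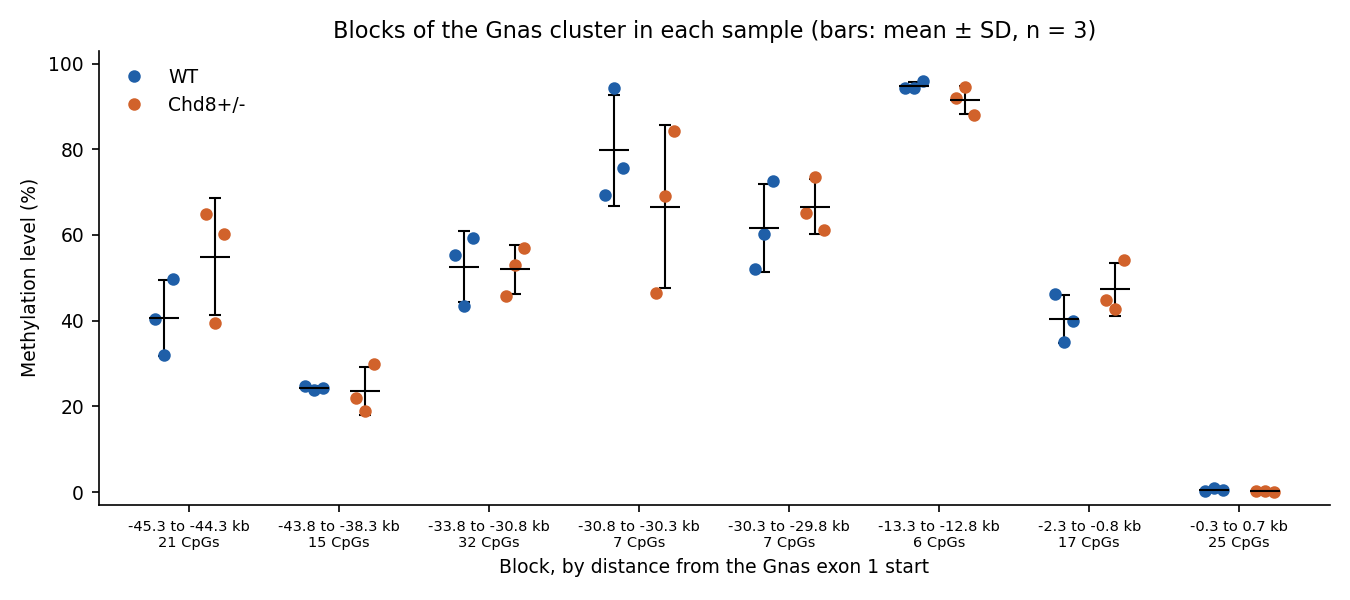
Methylation level (percent, vertical axis) of the 8 stretches of the cluster in each sample, ordered along the chromosome, with points for samples and bars for the mean and SD of each group (n = 3). The groups overlap in all 8 stretches, and the unmethylated stretch at Gnas exon 1 lies under 1% in every sample.

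Runs of neighbouring windows at 35 to 65% were long in the cluster. Its 4 runs held 2, 5, 1 and 3 windows, among 5536 such runs on the autosomes. Only 7 autosomal runs reached 5 windows, 1 of them that in the middle of the Gnas cluster, and 119 reached 3 windows, 2 of them in the cluster. When gaps between the windows of a run were held to at most 1000 bp, a rule added after seeing the data, the run in the middle was the only autosomal run of 5 windows, and 2 of the 8 runs of at least 3 windows lay in the cluster. The interval was chosen as a known imprinted cluster, so these counts are a description.

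Within a library, CpGs close together in the intermediate windows differed little. Pairs of CpGs at most 20 bp apart differed by a median of 2.92 points in the cluster (50 pairs), against 14.5 points over 8918 pairs in autosomal windows of the same class. By library the median was 2.602 to 3.22 points in the cluster and 13.9 to 15.0 on the autosomes. Counting each pair once in each of the 6 libraries, 61% of the cluster's differences were within 5 points. The autosomal share was 24.2%, and the median reads were 38 and 42. The median was 1.78 points near Nesp, 6.19 in the middle of the cluster, 1.66 in the window ending at 174142000 and 2.93 before Gnas. At most 10 bp apart, an alternative added after seeing the data, the medians were 2.65 and 13.7 points. Neighbours can share the reads of 1 fragment, and the part of this in the medians was not tested.

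**Figure D3:**
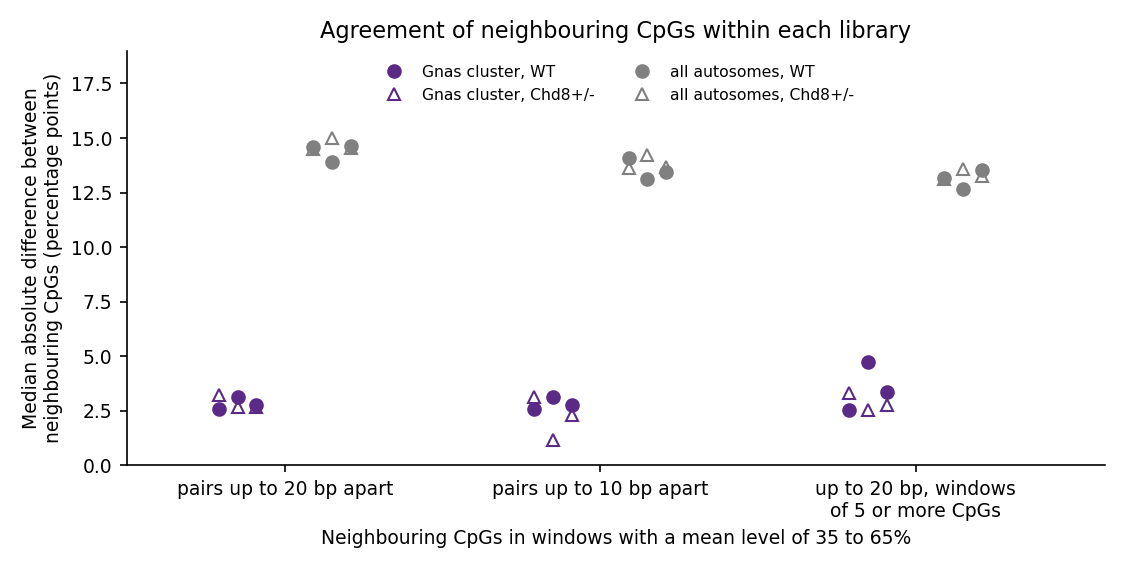
Median absolute difference in methylation (percentage points, vertical axis) between neighbouring CpGs in windows at 35 to 65%, with 1 point per library (circles WT, triangles Chd8+/-), for the Gnas cluster (purple) and all autosomes (grey), over pairs up to 20 bp apart, up to 10 bp apart, and up to 20 bp apart in windows of at least 5 CpGs. At up to 20 bp the cluster's medians lie between 2.602 and 3.22 points and the autosomal ones between 13.9 and 15.0 points, and the cluster lies lower in all 6 libraries under each choice.

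Between samples the cluster was not more even than other intermediate windows. The SD over the 6 samples had a median of 10.7 points in its 11 windows at 35 to 65% (7.78 to 19.1) and 10.2 points in the 6459 autosomal windows of that class. The SD expected from read counts alone was taken from the mean reads per CpG, as if the CpGs of a window shared all reads. Its median was 7.24 points in the cluster and 7.45 on the autosomes. The observed SD was a median of 1.67 and 1.403 times the expected one. These ratios rest on that assumption, and in windows under 20% they were 0.276 and 0.774. The same CpG in a pair of libraries differed by a median of 17.8 points in the cluster (77 CpGs) and 15.5 on the autosomes (25910 CpGs). In the cluster, pairs of WT libraries differed by 16.1 points (12.9 to 18.4), pairs of Chd8+/- libraries by 25 (16.1 to 25), and pairs across genotypes by 17.0 (11.3 to 23.3). There the range across genotypes overlapped the ranges within each genotype. On the autosomes the corresponding values were 14.5 points within WT, 16.4 within Chd8+/- and 15.6 across genotypes, so pairs of Chd8+/- libraries differed most there too.

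The samples at the ends of the range also changed from stretch to stretch. WT replicate 2 was lowest near Nesp, in the middle of the cluster and before Gnas, and highest in the window at 174141001. Chd8+/- replicate 1 was highest near Nesp and lowest in that same window. WT replicate 3 was highest in the middle of the cluster, and Chd8+/- replicate 3 before Gnas.

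For the comparison of genotypes, the mean was taken over the 150 CpGs covered in all samples. WT samples had 41.8, 37.8 and 43.7%, and Chd8+/- samples had 42.4, 40.7 and 46.4%. The groups overlapped. The means were 41.1% ± 3.04 and 43.2% ± 2.93 (SD, n = 3 each), a difference of 2.06 points (SE 2.44, exact permutation p = 0.5). It fell to 0.385 points without WT replicate 2 and to 0.449 without Chd8+/- replicate 3. The 500 kb on either side (365 CpGs) differed by 0.462 points (exact permutation p = 0.8), and by −0.328 without Chd8+/- replicate 3. The mean of all autosomal CpGs differed by 0.599 points (exact permutation p = 0.1, the smallest that 3 against 3 samples can give), and by 0.252 without Chd8+/- replicate 3.

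None of the 19 windows passed an adjusted p under 0.05 in the edgeR quasi-likelihood test, nor did any of 67483 autosomal windows (percent called 0). At an unadjusted p under 0.05, edgeR and limma each gave 0 of the 19 windows, against 3.53% and 5.21% of autosomal windows. Over single CpGs, edgeR called 0 of the 131 tested in the cluster and 0 of 418119 on the autosomes (percent called 0). At an unadjusted p under 0.05 it gave 2 CpGs of the cluster (3.59% on the autosomes), and limma gave 10 (5.17%). Mean levels were higher in Chd8+/- in 8 windows and lower in 11. Among the windows at 35 to 65% they were higher in 7 and lower in 4, with a median difference of 3.96 points (−15.4 to 24.9). The same median over all 6459 autosomal windows of that class was 1.79 points (95% of them between −18.0 and 22.5), so 1 of the cluster's 11 windows lay outside that span.

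**Figure D4:**
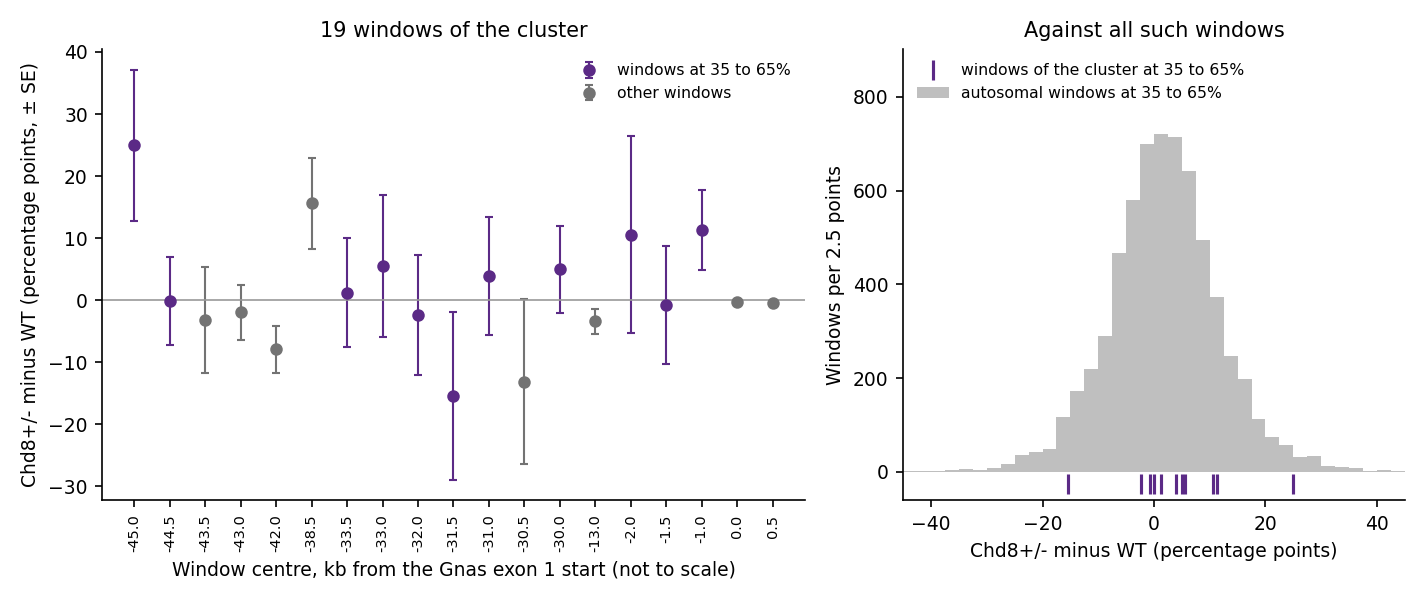
Left, the difference Chd8+/- minus WT in methylation (percentage points, vertical axis, bars ± SE) for the 19 windows of the cluster in order along the chromosome; right, the number of autosomal windows at 35 to 65% by their difference, with the cluster's 11 windows marked. The cluster's differences spread from −15.4 to 24.9 points around a median of 3.96, on both sides of 0.

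The groups did not overlap in 2 of the 19 windows, or 10.5%, against 8.86% of autosomal windows. Both were lower in Chd8+/-, and neither was among the 11 windows at 35 to 65%, where the autosomal share was 10.9%. The window 174172001-174172500, just inside Gnas, had 1 of 270, 3 of 389 and 1 of 169 methylated reads in WT and 0 of 205, 0 of 136 and 0 of 131 in Chd8+/-, which allow up to 1.46, 2.21 and 2.29% (unadjusted edgeR p of 0.0528, adjusted 0.998). All 3 WT shares lay below these limits, so the difference was not detectable at this depth. The other, 174129501-174130000, lay in the low stretch after Nesp and differed by −7.91 points (unadjusted edgeR p of 0.515, adjusted 0.9997). With levels weighted by reads, 2 of the 19 windows were again apart, against 8.98% of autosomal windows, but 174158501-174159000 took the place of 174129501-174130000. The other window lower in Chd8+/- with the smallest p was that at 174158501-174159000, given above (unadjusted edgeR p of 0.1202, adjusted 0.998).

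The windows higher in Chd8+/- with the smallest p were both on the Nesp side. That at 174133001-174133500, with 3 CpGs, had 9.53, 12.8 and 20.9% in WT and 29.0, 19.2 and 41.8% in Chd8+/-, so the groups overlapped at 1 sample each. Means of 14.4% ± 5.83 and 30.001% ± 11.4 (SD, n = 3 each) differed by 15.6 points (unadjusted edgeR p of 0.0787, adjusted 0.998), and by 9.68 without Chd8+/- replicate 3. That at 174126501-174127000, in the stretch after the Nesp start, had 30.03, 27.7 and 47.3% in WT and 71.2, 38.9 and 69.7% in Chd8+/-. Its means of 35.003% ± 10.7 and 59.9% ± 18.2 (SD, n = 3 each) differed by 24.9 points. With the summed reads that edgeR tests, the difference was 18.9 points (unadjusted edgeR p of 0.166, adjusted 0.998), and it was 13.02 points without Chd8+/- replicate 1 and 30.6 without Chd8+/- replicate 2.

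Single CpGs whose groups did not overlap numbered 16 of 131, in 10 windows, 11 higher and 5 lower in Chd8+/-, against a background of 7.42% of autosomal CpGs (4.46% higher and 2.96% lower). Of the 75 CpGs at 35 to 65%, 9 were of this kind, against 10.4% on the autosomes. The 16 are not independent, since 5 of them lay between 174126658 and 174126691 in the window after the Nesp start. At 1 of these 5, 174126668, WT samples read 32.1, 6.67 and 34.9% and Chd8+/- samples read 100, 66.7 and 65.4%, from only 14 to 43 reads per sample.

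The CpGs higher in Chd8+/- with the smallest p were a pair in the low stretch, 8 bp apart. CpG 174133211 had 0.641, 7.01 and 10.5% in WT and 26.1, 13.5 and 39.3% in Chd8+/-, with means of 6.04% ± 4.99 and 26.3% ± 12.9 (SD, n = 3 each). The groups did not overlap, and the difference of 20.3 points had an edgeR p of 0.0254, adjusted 1. CpG 174133203 had 4.08, 8.81 and 21.8% in WT and 25.4, 29.8 and 47.1% in Chd8+/- (unadjusted edgeR p of 0.0549, adjusted 1). The remaining CpG of their window, 174133162, differed by 3.99 points, and its groups overlapped. Downstream of Gnas exon 1, CpG 174178426 was lower, at 97.7, 96.8 and 100% in WT and 62.1, 69.0 and 82.5% in Chd8+/-, from 29 to 60 reads. Its difference of −27.0 points had an edgeR p of 0.0219, adjusted 1. The other CpG of its window, 174178413, differed by −7.90 points, and its groups overlapped. CpG 174179457 had 100, 97.6 and 100% in WT and 94.4, 93.3 and 85.0% in Chd8+/- (unadjusted edgeR p of 0.134, adjusted 1). Its difference of −8.28 points was −5.32 without Chd8+/- replicate 3, and this CpG did not reach 20 reads in all 6 samples.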

How the data were processed

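Genomic DNA from 6 neocortex samples was assayed by reduced representation bisulfite sequencing (RRBS). Per the submitters' processing notes, reads were handled with SAMtools 1.9, Trim Galore 0.4.4 and Bismark 0.20.0 on the build mm39; their settings and any deduplication are not given in the sources used here. The deposited tables list cytosines with coverage as a count of reads, and the shares read as cytosine and thymine as percent, per the file headers. The lowest coverage listed was 10 reads for a cytosine of 1 strand. Any listed cytosine thus met the minimum of 10 merged reads, and a strand not listed added no reads to its CpG. Coverage times percent gave whole methylated reads, within 0.02 reads, for 100% of cytosines.

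Strands were merged by subtracting 1 base from reverse-strand positions and adding reads. Windows of 500 bp began at multiples of 500 bp and needed at least 3 CpGs covered by 10 or more reads in all 6 samples. Printed window and block levels were unweighted means over CpGs. Blocks were runs of windows in 1 level class by the mean of the 6 samples, without regard to genotype, with class bounds at 20, 35, 65 and 80%. Windows with fewer CpGs did not break a run.

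Methylated and unmethylated counts, summed per window or taken per CpG, were tested with edgeR 4.0.16 (quasi-likelihood test, a coverage term per sample) in R 4.3.3 over all autosomes, with Benjamini-Hochberg adjustment. CpGs and windows at 0% or 100% in all 6 samples were left out. The edgeR step was also run on simulated windows with known changes. The outcome is not given here, so the size of change that it could call is not stated. Alternatives included limma 3.58.1 on log2 of methylated plus 1 over unmethylated plus 1 reads. Block and interval means were compared by exact two-sided permutation tests, in which 3 against 3 samples cannot go below p = 0.1. The other steps used Python 3.11.15, pandas 2.3.3, numpy 2.4.6, scipy 1.17.1 and matplotlib 3.10.9.

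Named within the interval were the 2 windows and 2 CpGs with the smallest edgeR p in each direction, every block of 2 or more windows, and the promoters that could be placed. Single-window blocks, the run of 5 CpGs near Nesp and the window at the Gnas start were named after their values were seen. The interval, its members and these rules were chosen with earlier results of these data known.

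No mm39 genome or annotation was used. RefSeq promoters (GRCm38.p6, 300 bases, 250 before to 50 after the start) were placed on mm39 by sliding the spacing of their CpGs along the listed CpGs, and a placement needed at least 5 matched CpGs. Positions where a listed CpG did not fall on a CpG of the sequence were dropped before the rest were ranked. No coordinates were carried between builds.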

Additional observations from a re-analysis of the deposited data

How the results depend on the processing

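Other settings moved small differences across 0, and none gave a window or CpG of the cluster an adjusted p under 0.05. For the stretch at 20 to 35% after Nesp, the difference between genotypes (−0.675 points) became 2.51 points with at least 20 reads per CpG, 2.95 with CpGs covered in at least 2 samples per genotype and 3.45 when weighted by reads, and it ranged from −3.78 to 1.61 when each replicate was left out in turn. For the intermediate stretch in the middle of the cluster (−0.643 points) it became 1.89 with CpGs covered in at least 2 samples per genotype, 0.148 without replicate 3 of both groups, a setting chosen after seeing the data, and it ranged from −5.26 to 2.65 when each replicate was left out in turn. Without replicate 3 of both groups, the other stretches kept their sign, with 16.1 points after Nesp, −24.0 and 13.2 in the windows at 174141001 and 174141501, −1.13 at 174158501, 3.14 before Gnas and −0.318 at Gnas, and the mean of the interval was 1.75. The flanks of 500 kb turned to −0.158 there and ranged from −0.328 to 0.900 when each replicate was left out in turn. The autosomal mean was 0.242 there, 1.13 with CpGs covered in at least 2 samples per genotype and 3.30 when weighted by reads. The causes were not tested. The mean of the interval kept its sign, at 0.385 to 3.36 points over the replicates left out. Over all windows, the deviations of samples with the same replicate number were barely correlated (r = 0.00182 to 0.00521). Their range reached higher than that of other pairs (−0.00548 to 0.00348) but overlapped it, and the numbers were not taken to pair the samples. With a replicate block in the model, edgeR called 0 windows and 0 CpGs, and the exact paired test of the interval mean gave p = 0.25, the smallest that 3 pairs allow. The unmethylated stretch at Gnas has no value at 20 reads, nor has the window at 174141001, as no CpG there has 20 reads in all 6 samples.

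Precision is limited by 3 samples a group, by coverage sums of 8140 to 13401 reads over the interval per library, and by RRBS fragments. Parts of the cluster have no listed CpG. The exon 1A promoter letters hold no CCGG and no CpG run matched them, but the part of the former in the latter was not tested. Reads were not assigned to parental chromosomes.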
